A study of Mus musculus with 40 samples.

Results

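The 10 genes described here belong to the peroxisome proliferator-activated receptor (PPAR) pathway: the receptors Pparg, Ppara and Ppard, their partner Rxra, the coactivator Ppargc1a and the target genes Cpt1a, Pdk4, Angptl4, Ucp2 and Plin2. They were chosen by symbol as the receptors, partner, coactivator and textbook targets of the pathway. All 10 of these symbols were present among the 40213 in the count tables, and all 10 passed the filter on low counts, which kept 16629 symbols in midbrain libraries and 16682 in spinal cord libraries. Gene expression was measured by RNA sequencing in 40 libraries from male C57BL/6N mice of 8 weeks, 20 of them midbrain and 20 spinal cord, with 4 in each of 5 groups per tissue. The Con group received saline in place of MPTP and also had saline injected at the acupoint GB34. The other groups received MPTP, a neurotoxin that damages dopaminergic neurons, at 20 mg/kg by intraperitoneal injection every 2 h for 4 injections. The MPTP-Veh group then received saline at the acupoint GB34, and the MPTP-SU group received SUEHP, a herbal extract, at GB34 in 4 injections that began a week after MPTP. The MPTP-SU+S group received SUEHP with SR141716A, a CB1 receptor antagonist, at 3 mg/kg, and the MPTP-SU+T group received SUEHP with T0070907, a PPARγ inhibitor, at 5 mg/kg. Both were given by intraperitoneal injection before SUEHP, in a solvent that contained ethanol. The study's methods describe no injection of this solvent for MPTP-SU. SUEHP without MPTP, and either inhibitor without SUEHP, were not analysed here. The labels number the libraries of a group 1 to 4 without saying that each is a separate mouse, so p-values measure the spread between these libraries, which may be partly technical.

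PPARs are nuclear receptors that are activated by fatty acids and their derivatives and that bind DNA together with a retinoid X receptor such as RXRα. PPARα and PPARδ are known mainly for switching on fatty acid oxidation, PPARγ for fat storage and for damping inflammation, and PGC-1α, encoded by Ppargc1a, is a coactivator of all of them and a regulator of mitochondrial biogenesis. In the brain, PPARγ has been studied mainly in neurons, microglia and astrocytes. T0070907 acts on the PPARγ protein, so its direct action is not read by the level of Pparg mRNA.

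PPAR and RXR together recognise repeats of the hexamer AGGTCA, and the 250 bases before the start of each member were searched for it on both strands in the RefSeq promoter table (mouse build GRCm38.p6, an older build than the GRCm39 named for the count tables). Of the 10 members, 9 had an entry, with 12 promoters between them, and Angptl4 had none. The hexamer was found in 5 of the 12 promoters, from 4 members (Pparg, Rxra, Cpt1a and Plin2), beside 14.0% of all 32851 promoters in the table. The full repeat AGGTCANAGGTCA was in none of the 12 and in 0.0335% of all promoters, and the relaxed form AGGNCANAGGNCA was in none of the 12 and in 0.338% of all. Any match to the full repeat is also a match to both of the other motifs. The promoters of Cpt1a (chr19:3323051-3323300, plus strand), Plin2 (chr4:86670060-86670309, minus strand) and Ucp2 (chr7:100493108-100493357, plus strand) are shown because these 3 targets carried the main differences in level between tissues or groups. Each is written 5′ to 3′ in the direction of the gene, and capitals mark the hexamer, read here as TGACCT because it lies on the opposite strand.
Cpt1a: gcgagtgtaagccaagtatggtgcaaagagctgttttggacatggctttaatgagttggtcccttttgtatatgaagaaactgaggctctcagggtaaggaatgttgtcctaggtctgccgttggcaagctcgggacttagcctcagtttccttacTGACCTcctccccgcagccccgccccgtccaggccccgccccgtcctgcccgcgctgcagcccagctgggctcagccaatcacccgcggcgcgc
Plin2: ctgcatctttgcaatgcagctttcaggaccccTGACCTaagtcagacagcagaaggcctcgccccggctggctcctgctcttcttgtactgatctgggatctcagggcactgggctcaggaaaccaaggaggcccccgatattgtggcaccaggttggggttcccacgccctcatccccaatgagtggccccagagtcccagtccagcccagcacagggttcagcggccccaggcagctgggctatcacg
Ucp2: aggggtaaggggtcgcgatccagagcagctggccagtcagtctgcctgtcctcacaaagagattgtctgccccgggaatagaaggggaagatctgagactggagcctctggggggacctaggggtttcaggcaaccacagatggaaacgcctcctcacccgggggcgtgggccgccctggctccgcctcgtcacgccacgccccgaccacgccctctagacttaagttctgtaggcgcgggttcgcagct
The hexamer began at -94 relative to the start of Cpt1a and at -218 relative to the start of Plin2. The Ucp2 window held no match, which says only that these letters are not in this stretch.

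Midbrain libraries held 11958200 to 16639823 counts and spinal cord libraries 14642808 to 16615378. One library stood apart in its mitochondrial share: in midbrain MPTP-Veh replicate 4, mitochondrially encoded genes took 1.35% of the counts, against 9.92 to 17.5% in the other midbrain libraries and 11.0 to 18.0% in the spinal cord. Log2 fold changes of named members that rest on the midbrain MPTP-Veh group are therefore given with and without it. Correlations over the midbrain libraries include it. A second difference ran along the groups of the midbrain: the summed counts of 10 genes that are abundant in liver, such as Alb and Apoa1, were 33 to 57 in the 12 libraries of the 3 groups given SUEHP and 191 to 2807 in the remaining 28 libraries of both tissues. The labels name no batch. The tissue labels were checked with motor neuron genes, whose summed level in Con was 9.72 to 24.1 CPM (counts scaled to a common library size) in the midbrain and 193 to 216 CPM in the spinal cord, and with dopaminergic neuron genes, of which 7 of 9 tested were higher in the midbrain (434 to 649 against 310 to 334 CPM). Other midbrain libraries were also uneven. Summed choroid plexus genes ran from 47.4 to 1293 CPM in Con, 41.7 to 64.0 in MPTP-Veh and 48.1 to 61.1 in MPTP-SU. Summed hypothalamus genes ran from 5.86 to 466, 7.79 to 661 and 16.8 to 43.2 CPM, with 12.7 CPM in MPTP-Veh replicate 4. The part of this in comparisons that use these groups was not tested.

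The 3 receptors were not equally abundant. Levels between genes were compared as CPM per kilobase of the longest annotated transcript, as the mean ± SD over the 20 libraries of a tissue. In the midbrain Ppard, the receptor with the broadest expression, stood at 7.64 ± 1.28 CPM per kb. Ppara, the receptor best known from liver, stood at 0.966 ± 0.241 CPM per kb and Pparg at 0.513 ± 0.218 CPM per kb. Pparg was the lowest of the 10 genes in the midbrain, with 5 to 30 counts per library. The receptors had the same order in the spinal cord, with Ppard at 6.48 ± 0.482, Ppara at 1.24 ± 0.185 and Pparg at 0.645 ± 0.139 CPM per kb, and Pparg had 16 to 35 counts per library. Ppargc1a had the highest mean in both tissues, at 9.30 ± 1.68 (midbrain) and 11.4 ± 1.01 CPM per kb (spinal cord).

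Among the targets the order differed between tissues. In the midbrain Ucp2, a mitochondrial inner membrane carrier, was followed by Cpt1a, which brings long-chain fatty acids into mitochondria, Plin2, which coats lipid droplets, Pdk4, which restrains glucose oxidation, and Angptl4, a secreted inhibitor of lipoprotein lipase. Their levels were 8.16 ± 2.93, 5.86 ± 0.841, 3.66 ± 0.746, 2.15 ± 0.392 and 0.743 ± 0.176 CPM per kb. Spinal cord Cpt1a led with 11.0 ± 0.777 CPM per kb, ahead of Ucp2 at 10.8 ± 1.18, Plin2 at 7.11 ± 0.594, Pdk4 at 3.52 ± 0.326 and Angptl4 at 0.541 ± 0.179. Few neighbours in the full order of 10 genes were separated by their ranges over the 20 libraries: midbrain Plin2 lay wholly above Pdk4, while in the spinal cord Ppard lay above Pdk4 and Pdk4 above Ppara. All other neighbours overlapped. Rxra and Cpt1a in the midbrain were the closest, with Rxra the higher in 10 of 20 libraries.

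**Figure D1:**
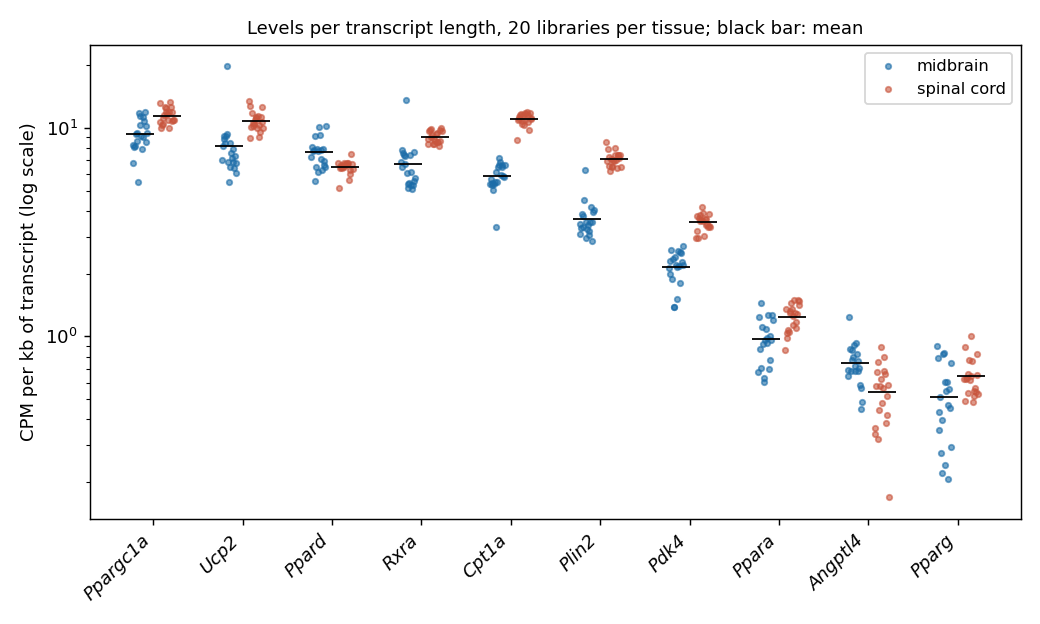
Level of each of the 10 genes in CPM per kilobase of transcript (log axis), with 1 point per library, 20 libraries for the midbrain (blue) and 20 for the spinal cord (red), and a black bar at each mean. Ppargc1a has the highest mean in both tissues, Pparg is lowest in the midbrain at 0.513 CPM per kb and Angptl4 is lowest in the spinal cord at 0.541 CPM per kb.

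The saline-treated Con mice show how the pathway differs between the 2 tissues without MPTP. The targets of fatty acid handling Cpt1a and Plin2 were lower in the midbrain than in the spinal cord, and Angptl4 was higher. These 3 members passed both an adjusted p below 0.05 and a fold change above 1.5 in edgeR's quasi-likelihood test, the rule for a call throughout, beside 17.4% of all genes tested in this comparison. Cpt1a was at 23.1, 24.6, 23.1 and 23.4 CPM in the 4 midbrain libraries and at 37.7, 47.3, 47.7 and 48.7 CPM in the 4 spinal cord libraries. All midbrain values lay below all spinal cord values, with a log2 fold change of -0.94 (SE 0.09) and an adjusted p of 7.2e-06. Plin2 was at 5.86, 6.56, 6.26 and 7.28 CPM in the midbrain and at 16.1, 13.1, 15.0 and 12.4 CPM in the spinal cord. These groups did not overlap either, a separation that 20.6% of all genes showed in this direction, and the log2 fold change was -1.12 (SE 0.12, adjusted p = 1.86e-05). Angptl4 was at 2.29, 2.15, 4.11 and 2.88 CPM in the midbrain and at 1.13, 1.21, 1.91 and 2.22 CPM in the spinal cord. Its groups overlapped, since the highest spinal cord value exceeded the lowest midbrain value, and the log2 fold change was 0.80 (SE 0.29, adjusted p = 0.0419). The Angptl4 call was lost without midbrain Con replicate 3 (adjusted p = 0.132) or 4 (0.0790) and without spinal cord replicate 1 (0.106), 2 (0.102) or 3 (0.0554).

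Another 5 members had an adjusted p below 0.05 without reaching 1.5-fold, beside 40.2% of all genes at that threshold alone. Ppard averaged 28.9 CPM in midbrain and 23.1 CPM in spinal cord, a log2 fold change of 0.32 (adjusted p = 0.0119). Rxra (-0.35), Ppargc1a (-0.49), Pdk4 (-0.51) and Ucp2 (-0.44) leaned to the spinal cord on the same log2 scale, with adjusted p-values of 0.00531, 0.00183, 0.00719 and 0.0148. Pparg and Ppara were nearly level, with log2 fold changes of -0.07 (95% confidence interval -0.78 to 0.64) and 0.01 (-0.52 to 0.55). Markers of several cell types also differed in level between the tissues. The summed level of astrocyte genes was 3654 to 3826 CPM in the midbrain and 5659 to 6619 in the spinal cord, and that of oligodendrocyte genes was 10120 to 12460 against 18820 to 21090 CPM. Genes of fat cells summed to 13.3 to 18.8 against 24.3 to 28.5 CPM, while their defining members Adipoq and Plin1 had at most 7 counts in any library and Lep had 0 in all. Endothelial genes were also lower in the midbrain (297 to 334 against 338 to 356 CPM), as were red blood cell and skeletal muscle genes. Microglial genes were higher there (281 to 308 against 240 to 279 CPM). So were choroid plexus genes (47.4 to 1293 against 26.6 to 30.8 CPM). Pericyte and leptomeningeal fibroblast genes overlapped between the tissues. The part of these differences in the levels of Cpt1a and Plin2 was not tested. In bulk tissue, fewer cells of a type and less RNA per cell cannot be told apart.

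**Figure D2:**
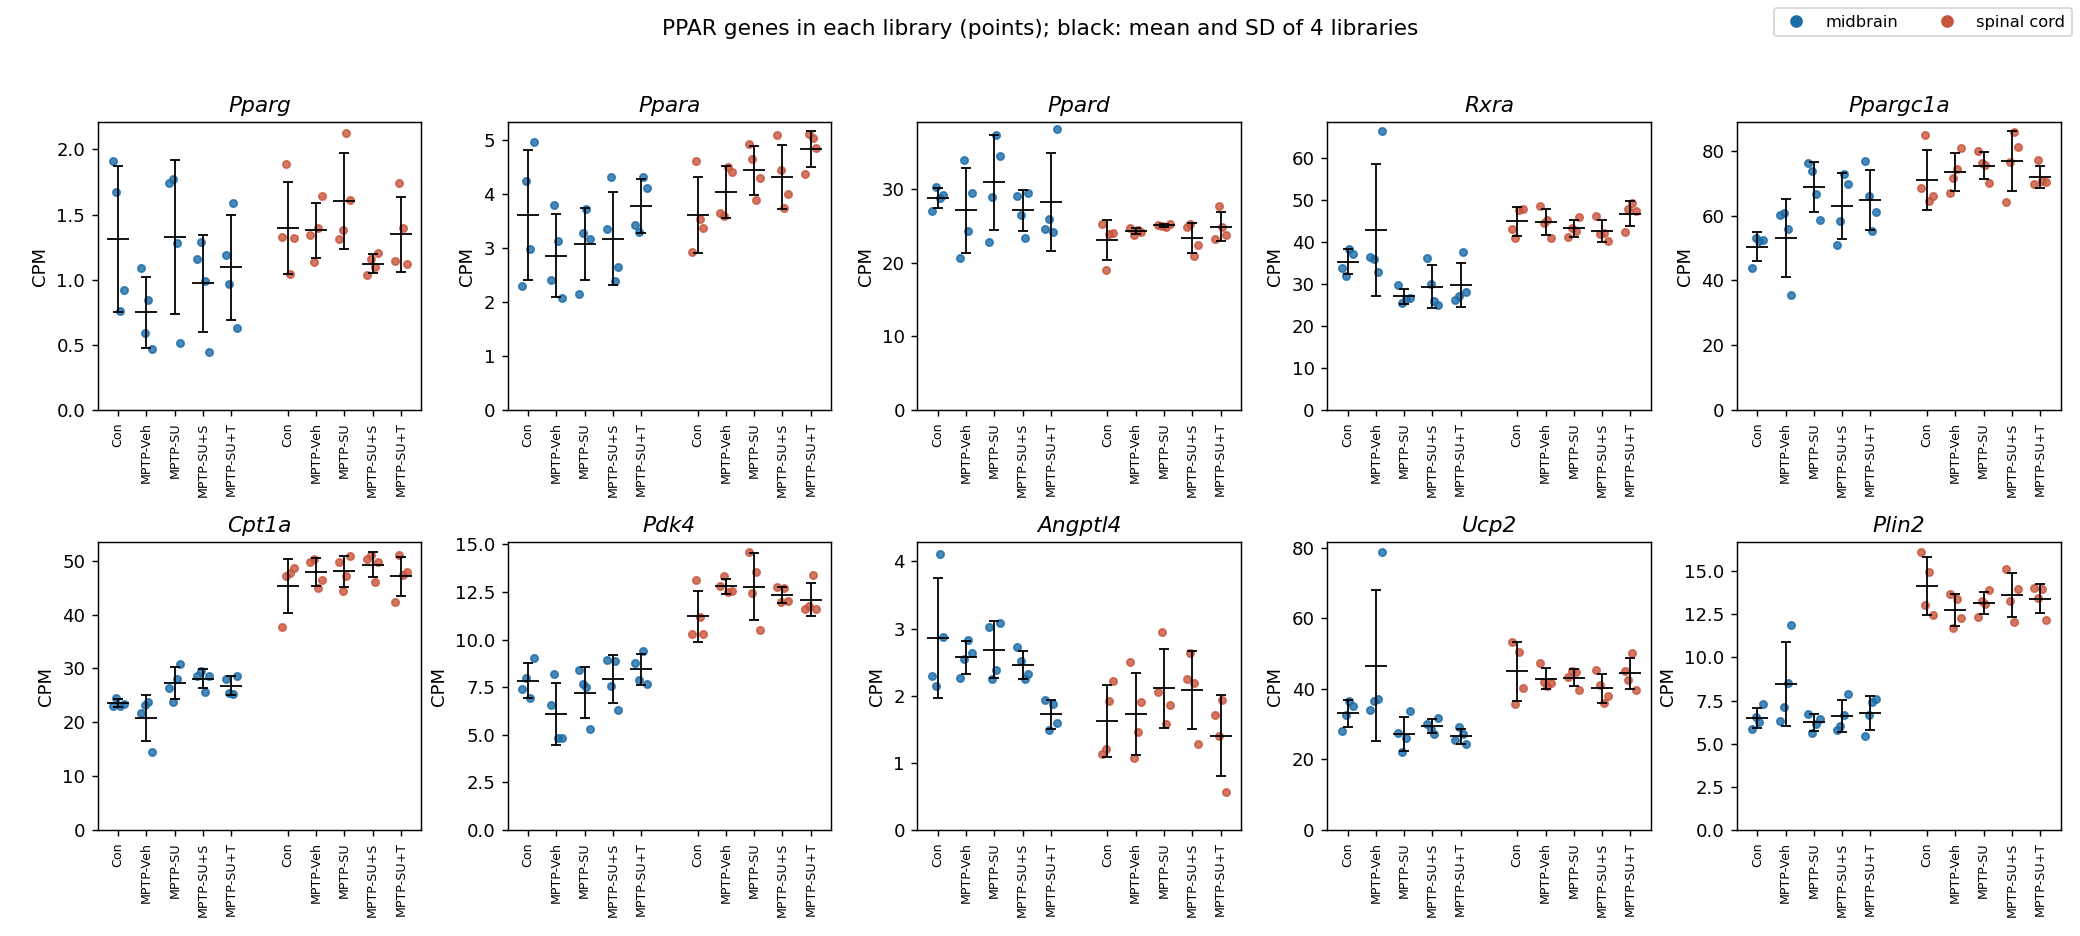
CPM of each of the 10 genes (1 panel per gene, each with its own linear axis from 0) in all 40 libraries, by group, with 1 point per library, midbrain in blue and spinal cord in red, and the mean and SD of each group of 4 in black. Cpt1a and Plin2 lie lower in the midbrain than in the spinal cord, and midbrain MPTP-Veh replicate 4 lies far above the rest of its group for Rxra (66.3 CPM) and Ucp2 (78.7 CPM).

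MPTP-Veh against Con asks what MPTP left in the tissue at the end of the experiment. In the midbrain 0 of the 10 members were called by edgeR, beside 0.018% of all genes (3 genes), and DESeq2 called 0 members as well. At an unadjusted p below 0.05 there were 2 members, beside 23.7% of all genes. Ucp2 was at 28.0, 32.6, 36.6 and 35.1 CPM in Con and at 33.9, 36.4, 37.1 and 78.7 CPM in MPTP-Veh, where replicate 4 alone was high. Its log2 fold change was 0.49 (adjusted p = 0.172), and 0.11 without that library. Plin2 likewise gave 0.37 (adjusted p = 0.201) with that library and 0.17 without it. Pparg was at 1.91, 1.67, 0.758 and 0.918 CPM in Con and at 1.09, 0.589, 0.843 and 0.471 CPM in MPTP-Veh. The groups overlapped, and the log2 fold change was -0.80 (SE 0.44, adjusted p = 0.262), with a 95% confidence interval of -1.71 to 0.12. Without replicate 4 it was -0.65 (adjusted p = 0.611). The median log2 fold change of the 10 members was -0.12.

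SUEHP given after MPTP was compared with saline at the same acupoint (MPTP-SU against MPTP-Veh). In the midbrain Rxra and Ucp2 fell and no member rose past the call, so 2 of 10 members were called, beside 13.5% of all genes (9.1% in the lower direction). Both calls were lost without 1 library of the MPTP-Veh group. Rxra was at 36.5, 36.0, 32.8 and 66.3 CPM in MPTP-Veh and at 29.7, 25.3, 26.3 and 26.7 CPM in MPTP-SU. All MPTP-SU values lay below all MPTP-Veh values, as 11.3% of all genes did, and the log2 fold change was -0.66 (SE 0.19, adjusted p = 0.0242). Ucp2 was at 27.4, 21.9, 25.9 and 33.7 CPM in MPTP-SU, all below the lowest MPTP-Veh value of 33.9 CPM, and the log2 difference was -0.77 (SE 0.21, adjusted p = 0.0211). Without MPTP-Veh replicate 4, Rxra averaged 35.1 ± 2.02 CPM in MPTP-Veh (SD, n = 3) and Ucp2 35.8 ± 1.72, and the log2 fold changes were -0.38 (adjusted p = 0.0556) and -0.40 (adjusted p = 0.0286). Neither then reached 1.5-fold, so 0 members were called by edgeR in that fit, beside 3.4% of all genes. The calls of both were also lost without MPTP-SU replicate 2 (adjusted p = 0.0697 for Rxra and 0.0701 for Ucp2) and without replicate 3 (0.0565 and 0.0526).

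The other targets and the coactivator were mostly on the opposite side. Cpt1a was at 21.6, 23.2, 23.8 and 14.5 CPM in MPTP-Veh, where replicate 4 was the lowest, and at 26.4, 23.8, 28.1 and 30.8 CPM in MPTP-SU. Cpt1a thus differed by a log2 fold change of 0.39 (adjusted p = 0.0401, SE 0.13), under 1.5-fold, and 0.25 (adjusted p = 0.0574) without that library. At an adjusted p below 0.05 alone, 20.1% of all genes passed. Ppargc1a was at 60.4, 60.8, 56.0 and 35.5 CPM in MPTP-Veh and at 76.3, 73.8, 66.9 and 58.8 CPM in MPTP-SU, with a log2 fold change of 0.37 (adjusted p = 0.0901) and 0.22 without replicate 4. Plin2 gave -0.43 (adjusted p = 0.0780) and -0.23 without it. Pparg was at 1.74, 1.78, 1.28 and 0.514 CPM in MPTP-SU, which put the log2 difference at 0.82 (SE 0.44, adjusted p = 0.168) against MPTP-Veh, and 0.67 without replicate 4. Ppara, Ppard, Pdk4 and Angptl4 had log2 fold changes of 0.10, 0.19, 0.24 and 0.06, and without replicate 4 of -0.02, 0.23, 0.15 and 0.07, so the sign of Ppara turned. The median of the 10 members was 0.14, beside 0.0007 over all genes tested.

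The comparison also ran along the split in liver transcripts described above, and the marker genes of microglia, a cell type that expresses Ucp2, summed to 280 to 499 CPM in MPTP-Veh and 275 to 330 CPM in MPTP-SU, with all 12 of them detected. Replicate 4 gave the highest of these values, and the other MPTP-Veh libraries lay at 280 to 318 CPM. Of the 12 microglial genes 3 were called lower, and of 13 genes that respond to glucocorticoids, as Pdk4 and Angptl4 also do, 5 were called lower, beside 9.1% of all genes in that direction. Among other marker lists, 3 of 10 astrocyte, 2 of 10 dopaminergic neuron and 2 of 5 red blood cell genes were called lower, and 1 red blood cell gene higher. Every remaining list had 0 or 1 gene called lower. Without replicate 4, 0 microglial, glucocorticoid, astrocyte or red blood cell genes were called lower by edgeR, beside 2.09% of all genes. In that fit 2 dopaminergic neuron genes were still called lower. The same library stood above the rest of MPTP-Veh in the summed genes of oligodendrocytes (35830 against 11490 to 14190 CPM), red blood cells (2529 against 241 to 377 CPM), skeletal muscle (472 against 79.3 to 99.1 CPM), leptomeningeal fibroblasts (421 against 177 to 389 CPM) and glucocorticoid response (1163 against 612 to 641 CPM). In MPTP-SU these 5 sums were 10390 to 13070, 290 to 342, 52.5 to 73.4, 192 to 252 and 431 to 553 CPM. Replicate 4 was also highest in MPTP-Veh for astrocyte (4045 against 3443 to 3616 CPM), endothelial (468 against 303 to 354 CPM) and fat genes (32.6 against 11.8 to 13.8 CPM). Those sums in MPTP-SU were 3513 to 3849, 320 to 334 and 9.73 to 12.9 CPM. For pericyte genes it lay within the range of the others (296 against 266 to 328 CPM). The part of any of these in these results was not tested. The same contrast in the spinal cord gave a different value for the same pair of genes: the tissue difference of the SUEHP effect was -0.61 for Rxra (adjusted p = 0.0344) and -0.77 for Ucp2 (adjusted p = 0.0251) on the log2 scale, so 2 members were called, beside 12.1% of all genes. Without midbrain MPTP-Veh replicate 4 these differences were -0.31 (adjusted p = 0.158) and -0.39 (adjusted p = 0.110), and neither was called.

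**Figure D3:**
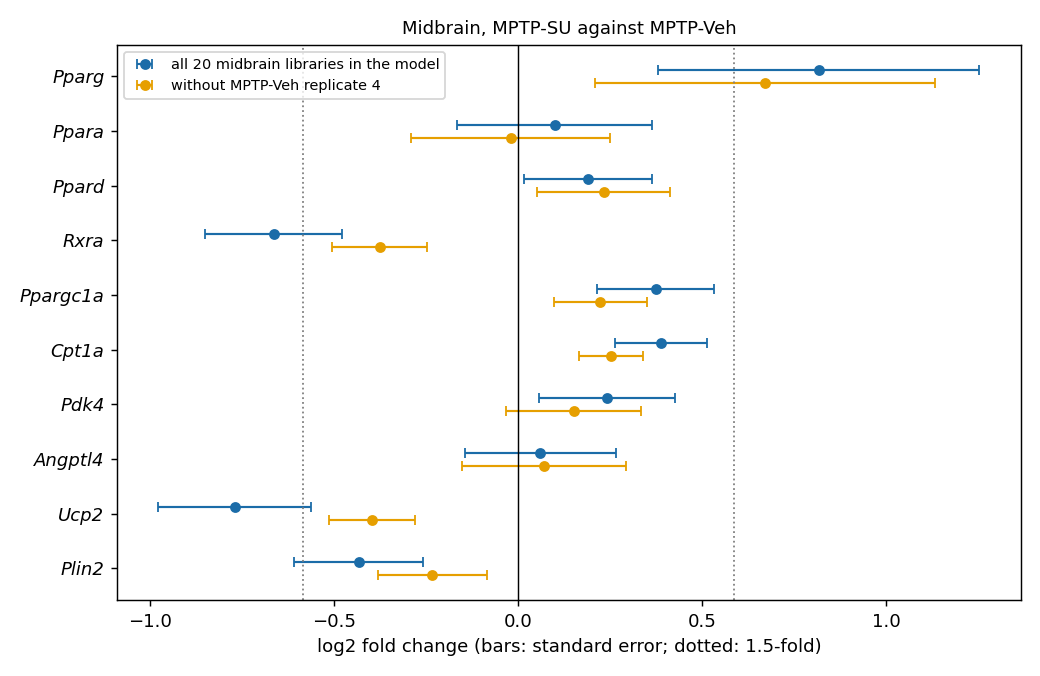
Log2 fold change of each member for MPTP-SU against MPTP-Veh in the midbrain, from the model with all 20 libraries (blue) and without MPTP-Veh replicate 4 (orange), with bars of 1 standard error and dotted lines at 1.5-fold. Leaving out that library moves Rxra from -0.66 to -0.38 and Ucp2 from -0.77 to -0.40, inside the dotted lines.

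Adding T0070907 to SUEHP asks whether the PPAR pathway differed at the end of the experiment when this PPARγ inhibitor was given before SUEHP (MPTP-SU+T against MPTP-SU). With no solvent injection described for MPTP-SU, the inhibitor and its solvent cannot be told apart. In the midbrain 0 of 10 members were called by edgeR, beside 0% of all genes, and DESeq2 called 0 members. At an unadjusted p below 0.05 there was 1 member, Angptl4, beside 1.7% of all genes. Angptl4 was at 3.02, 2.25, 2.38 and 3.08 CPM in MPTP-SU and at 1.93, 1.48, 1.87 and 1.60 CPM in MPTP-SU+T, where each library had 23 to 33 counts of it. All MPTP-SU+T values lay below all MPTP-SU values, which held for 0.956% of all genes in this direction. The log2 fold change was -0.64 (SE 0.21, 95% confidence interval -1.07 to -0.20), and the adjusted p was 1 over 16629 genes in edgeR's test. The direction was kept under each alternative run, between -0.71 and -0.55, and the adjusted p was below 0.05 under none. Against MPTP-SU+S, whose libraries had 2.73, 2.52, 2.25 and 2.33 CPM, Angptl4 was also lower in all 4 MPTP-SU+T libraries (0.607% of all genes in this direction), by -0.51 on the log2 scale (SE 0.21, adjusted p = 1). These comparisons share the MPTP-SU+T libraries. In that comparison 0 members were called by edgeR, beside 0% of all genes, and by DESeq2, and Angptl4 was the 1 member at an unadjusted p below 0.05, beside 0.782% of all genes.

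Pparg itself was at 1.19, 0.968, 1.59 and 0.626 CPM in MPTP-SU+T, within the range of MPTP-SU, and its log2 fold change of -0.28 had an interval of -1.16 to 0.59. That interval is wide: Pparg had 7 to 26 counts and 0.514 to 1.78 CPM in the MPTP-SU libraries. These values do not tell whether Pparg mRNA rose, fell or stayed level. Pdk4, the target with an often strong response to PPAR agonists, was at 8.39, 7.65, 7.49 and 5.28 CPM in MPTP-SU and at 8.77, 7.87, 9.42 and 7.69 CPM in MPTP-SU+T. Its groups overlapped, with a log2 fold change of 0.23 and an interval of -0.15 to 0.61. Ppara (0.30), Ppard (-0.13), Rxra (0.14), Ppargc1a (-0.09), Cpt1a (-0.03), Ucp2 (-0.04) and Plin2 (0.12) all had intervals that included 0 on the log2 scale. The median of the 10 members was -0.03. Adding SR141716A instead (MPTP-SU+S against MPTP-SU) gave 0 called members in edgeR, beside 0% of all genes, 0 in DESeq2 and 0 at an unadjusted p below 0.05, beside 1.65% of all genes at that threshold.

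**Figure D4:**
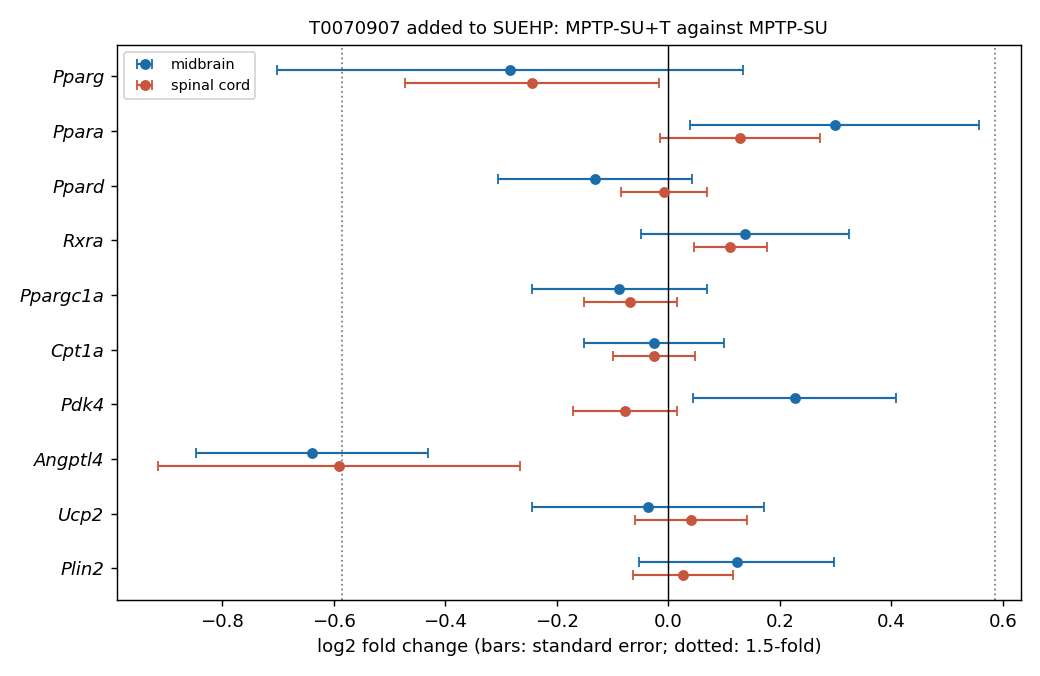
Log2 fold change of each member for MPTP-SU+T against MPTP-SU in the midbrain (blue) and the spinal cord (red), with bars of 1 standard error and dotted lines at 1.5-fold. Angptl4 lies lowest in both tissues, at -0.64 and -0.59, and no member was called in either.

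Set against MPTP-Veh, which is also the reference of the SUEHP comparison above, MPTP-SU+T had 1 called member in the midbrain, beside 3.8% of all genes and 3.23% in the lower direction. This comparison also ran along the split in liver transcripts, with 236 to 2807 summed counts in MPTP-Veh and 33 to 53 in MPTP-SU+T. The part of that split here was not tested. Ucp2 was at 25.6, 29.2, 27.1 and 24.3 CPM in MPTP-SU+T, below every MPTP-Veh library, by -0.81 on the log2 scale (SE 0.21, adjusted p = 0.0412). Without MPTP-Veh replicate 4 it was -0.43 (adjusted p = 0.0382), under 1.5-fold, and 0.814% of all genes were called. The adjusted p passed 0.05 without MPTP-SU+T replicate 1 (0.116), 2 (0.0967), 3 (0.0528) or 4 (0.110). Cpt1a lay wholly above MPTP-Veh (0.36, adjusted p = 0.0730) and Angptl4 wholly below it (-0.58, adjusted p = 0.0798), as 7.97% and 7.93% of all genes did. Pdk4 gave 0.47 (adjusted p = 0.0952) and Rxra -0.53 (adjusted p = 0.0752). Without MPTP-Veh replicate 4 the log2 values were 0.23 for Cpt1a (adjusted p = 0.138), -0.57 for Angptl4 (adjusted p = 0.154), 0.38 for Pdk4 (adjusted p = 0.249) and -0.24 for Rxra (adjusted p = 0.308).

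In the spinal cord 0 members were called by edgeR in any of the 6 comparisons between treatment groups, and DESeq2 also called 0 in each. The background was as low: 0% of all genes were called for MPTP-Veh against Con, for MPTP-SU against MPTP-Veh, for MPTP-SU+S against MPTP-SU and for MPTP-SU+T against MPTP-Veh, 0.024% for MPTP-SU+T against MPTP-SU and 0.12% for MPTP-SU+T against MPTP-SU+S. At an unadjusted p below 0.05 there was 1 member in 1 of the 6 comparisons, Pparg in MPTP-SU+S against MPTP-SU, beside 5.49% of all genes. Over the 6 comparisons 636 to 3628 of the 16682 genes passed that threshold. The log2 fold changes of the members ranged from -0.59 to 0.28, and their medians per comparison from -0.03 to 0.06. Pparg was at 1.31, 1.38, 2.12 and 1.62 CPM in MPTP-SU and at 1.03, 1.16, 1.10 and 1.21 CPM in MPTP-SU+S, which lay wholly below, as 2.24% of all genes did. The log2 fold change was -0.52 (SE 0.23, adjusted p = 0.899). Angptl4 was at 2.06, 2.95, 1.58 and 1.86 CPM in MPTP-SU and at 1.72, 1.39, 1.94 and 0.560 CPM in MPTP-SU+T, where replicate 4 was the lowest of all 40 libraries. The groups overlapped, and the log2 fold change of -0.59 (SE 0.32, adjusted p = 0.463) had an interval of -1.26 to 0.08. Its difference between tissues was -0.04 (SE 0.41) on the log2 scale, and for this contrast 0 members were called by edgeR, beside 0% of all genes, by DESeq2, or at an unadjusted p below 0.05.

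The tissue difference of MPTP-Veh against Con had 0 called members in edgeR, beside 2.45% of all genes, and 0 in DESeq2, with 3 members at an unadjusted p below 0.05: Pdk4 (-0.57 on the log2 scale, adjusted p = 0.0804), Plin2 (0.50, adjusted p = 0.0882) and Ucp2 (0.54, adjusted p = 0.134). Without midbrain MPTP-Veh replicate 4, 0 members were called by edgeR, beside 0.55% of all genes, and the values were -0.47 for Pdk4 (adjusted p = 0.205), 0.32 for Plin2 (adjusted p = 0.307) and 0.18 for Ucp2 (adjusted p = 0.616). Pdk4 averaged 6.08 ± 1.62 CPM in midbrain MPTP-Veh and 7.85 ± 0.912 CPM in midbrain Con (SD, n = 4). In the spinal cord it was at 12.8, 13.4, 12.5 and 12.5 CPM in MPTP-Veh and at 10.3, 13.1, 11.2 and 10.3 CPM in Con, where the groups overlapped.

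A wider set of 100 PPAR pathway genes (the other RXRs, coactivators and corepressors, fatty acid uptake and binding, mitochondrial and peroxisomal oxidation, lipid droplets and lipolysis, and adipocyte and sterol targets) was tested in the same fits. In Con, 2 of 83 tested genes were higher in the midbrain and 8 were lower, 12% in all beside 17.4% of all genes. The median log2 fold change was -0.04, beside 0.02 over all genes. Of the 8 lower genes, 4 belonged to the adipocyte and sterol targets, of which 16 were tested, among them the desaturases Scd2 (1625 against 2837 CPM, log2 fold change -0.80) and Scd1 (-0.88). Plin3, a lipid droplet protein like Plin2, was at 17.2 CPM in the midbrain and 34.2 CPM in the spinal cord (log2 fold change -0.99), and Lpin1, a phosphatidate phosphatase that also acts as a coactivator, at 56.9 and 120 CPM (-1.07). Dgat2, which makes triglycerides, was higher in the midbrain at 17.7 against 10.6 CPM (0.74). Lpl, the lipase that ANGPTL4 inhibits, was at 11.6 against 5.84 CPM (0.99, adjusted p = 0.0497), and its call held in 2 of 8 fits that left out a library. Of the 18 genes of mitochondrial fatty acid oxidation, none was called by edgeR, while Cpt1a, whose product feeds this pathway, was.

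In the midbrain, MPTP-SU against MPTP-Veh called 3 of 83 genes higher and 4 lower, 8.43% beside 13.5% of all genes, with a median of -0.10 beside 0.0007. Hadhb, a subunit of the mitochondrial trifunctional protein, was at 79.3 ± 6.38 CPM in MPTP-SU and 49.5 ± 12.9 CPM in MPTP-Veh (0.68, adjusted p = 0.00963), Ncoa2, a nuclear receptor coactivator, at 80.8 and 48.8 CPM (0.72), and Abca1, a cholesterol exporter, at 42.1 and 26.5 CPM (0.67). Dbi, an acyl-CoA binding protein, was at 123 ± 10.5 and 198 ± 53.3 CPM (-0.69, adjusted p = 0.00625), and Etfb, an electron carrier of fatty acid oxidation, at 18.0 ± 2.37 and 65.5 ± 72.8 CPM (-1.86, adjusted p = 0.0139). The lipases Pnpla2 (-0.86) and Lipe (-0.82) were the other lower genes. In the 8 fits that each left out 1 library of the compared groups, 0 to 4 genes of the set were called higher and 2 to 14 lower, with the highest counts without MPTP-Veh replicate 3. The count over all genes also moved between such fits, as given below. Etfb was called in 8 of these fits, Dbi and Hadhb in 7, Pnpla2 and Ncoa2 in 5, Abca1 in 4 and Lipe in 3. Without MPTP-Veh replicate 4, 0 of 83 genes of the set were called higher and 2 lower, beside 1.31% and 2.09% of all genes. Etfb was still called at -0.69 (adjusted p = 0.00413), while Dbi (-0.48) and Hadhb (0.51) fell short of 1.5-fold. The pathway genes Fabp1 and Pck1, which are abundant in liver and kidney, followed the split in liver transcripts: Fabp1 had 0 counts in all 12 midbrain libraries of the SUEHP groups and 2 to 61 counts in midbrain MPTP-Veh, and Pck1 had 0 to 1 and 3 to 59 counts.

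With T0070907 added to SUEHP, 0 of 83 pathway genes were called by edgeR in the midbrain, beside 0% of all genes. At an unadjusted p below 0.05 there were 0, beside 1.7% of all genes. The smallest p belonged to Hilpda, a lipid droplet protein that inhibits the lipase PNPLA2, at 1.93 ± 0.213 CPM in MPTP-SU+T and 2.54 ± 0.558 CPM in MPTP-SU (-0.39, adjusted p = 1 in edgeR). Its groups did not overlap, which held for 0.956% of all genes in this direction. Against MPTP-Veh, MPTP-SU+T called Hadhb higher (0.61) and Etfb (-1.76) and Hilpda (-0.77) lower, 3.61% of the set beside 3.8% of all genes. With 1 library left out, 0 to 4 genes were called higher and 0 to 10 lower: the counts were 0 and 1 when MPTP-Veh replicate 4 was omitted, 4 and 10 when replicate 3 of that group was, and 0 in both directions by edgeR when MPTP-SU+T replicate 1, 2 or 4 was. Over all genes 0.814% were called without MPTP-Veh replicate 4, and the range of the count over the other fits is given below. Etfb was called in 5 of these 8 fits, Hadhb in 4 and Hilpda in 3. In the spinal cord 0 of 86 pathway genes were called by edgeR in any treatment comparison. At an unadjusted p below 0.05 there were 1 to 23, beside 3.81 to 21.7% of all genes over the same comparisons. For MPTP-SU+T against MPTP-SU+S, 4 had an adjusted p below 0.05 without reaching 1.5-fold, beside 3.06% of all genes at that threshold alone, among them the peroxisomal thiolase Acaa1a (20.8 against 16.2 CPM, 0.36, adjusted p = 0.0262) and the fatty acid transporter Slc27a1 (70.7 against 56.7 CPM, 0.32, adjusted p = 0.0295). In the tissue difference of MPTP-Veh against Con, 1 of 87 pathway genes was called (1.15%, beside 2.45% of all genes): Acot2, an acyl-CoA thioesterase, at -0.84 (adjusted p = 0.0402), and at -0.72 (adjusted p = 0.0451) without midbrain MPTP-Veh replicate 4.

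The genes with the most similar profiles were found by Pearson's r of log2 CPM over the 20 libraries of a tissue, which share groups, depth and composition, so these values are descriptions only. In the midbrain they were Paqr9 (0.80), Jak1 (0.77) and Cdhr1 (0.77) for Pparg, Dhtkd1 (0.77), C230014O12Rik (0.74) and Ube2ql1 (0.74) for Pdk4, and Uggt1 (0.70), Fbxo10 (0.65) and 5830433I10Rik (0.63) for Angptl4. For Ucp2 they were Tapbp (0.96), Vamp8 (0.95) and the ribosomal protein gene Rpl11 (0.95). Spearman's rho, which uses ranks, was 0.82, 0.87 and 0.89 for these 3. Midbrain MPTP-Veh replicate 4, which had the highest Ucp2 value, was included. Among the 3 spinal cord genes most like Angptl4 were Pabpc1l2a (0.69) and Rcor2 (0.69). Those most like Pparg included Msrb1 (0.71) and Dlgap2 (0.70), those of Pdk4 were Phlpp2 (0.81), Gm20482 (0.79) and Tpp1 (0.77), and those of Ucp2 were Auts2 (0.89), Cacng7 (0.88) and Cdk5r2 (0.88).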

How the data were processed

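RNA was sequenced from 40 libraries (CORALL RNA-seq V2 kit). Per the labels and the study's methods, the authors used fastp, STAR and Salmon (GATK is also named) with build GRCm39; tool versions are not given in the sources used here, nor is whether molecular identifiers were used. The values deposited for each gene symbol are estimated counts, rounded to whole numbers and not normalized.

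Counts were analysed in R 4.3.3 with edgeR 4.0.16: filterByExpr, TMM and 1 quasi-likelihood model per tissue over 20 libraries, 1 over the 8 Con libraries and 1 over all 40 for tissue differences. Common dispersions were 0.0512 (midbrain) and 0.0071 (spinal cord). P-values were adjusted over all tested genes (Benjamini-Hochberg), and a call needed an adjusted p below 0.05 and a fold change above 1.5. CPM used TMM library sizes, and log2 CPM a prior count of 2. Levels per kilobase used the longest GENCODE transcript of an older build. Alternatives were other scalings, filters, a replicate block, GC and length correction (a spline fit used as an offset in edgeR), DESeq2 1.42.0, fewer libraries and leaving out each library. In simulated data for MPTP-SU+T against MPTP-SU, 64 of 100 genes changed 2-fold and 92 of 100 changed 4-fold were recovered in the midbrain (16411 genes), and 78 and 96 in the spinal cord (16546 genes). False calls numbered 8 and 3. The changed genes were drawn from all levels and no outlying library was simulated, so these rates do not describe Pparg or Angptl4.

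All members are named. Of the wider pathway set, up to 3 called genes per direction with the smallest p-values could be named, or the 2 with the smallest p-values where none was called; for Pparg, Pdk4, Angptl4 and Ucp2, the 3 most similar genes of at least 1 CPM are named, except that some genes are not reported here. Scd1, Lipe, Fabp1 and Pck1 were added after their values were seen, as was the liver list. Members and lists were chosen with earlier results of these data known. Pparg and Angptl4 had the lowest mean CPM of the members in both tissues, so their values carry the most counting error. Pparg had 5 to 30 counts per midbrain library and 16 to 35 per spinal cord library, and Angptl4 had 23 to 65 and 9 to 47.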

Additional observations from a re-analysis of the deposited data

Results flagged for a closer look

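Of 100 groups of 4 libraries tested for a library far from the other 3, 8 had one, and chance gives about 1 in 20 groups. In the midbrain, MPTP-Veh replicate 4 had 66.3 CPM of Rxra (the others 32.8 to 36.5) and 78.7 CPM of Ucp2 (33.9 to 37.1). MPTP-SU+T replicate 4 had 38.2 CPM of Ppard (24.2 to 25.9), MPTP-SU+T replicate 3 had 37.5 CPM of Rxra (26.1 to 28.0), and Con replicate 1 had 43.9 CPM of Ppargc1a (52.2 to 53.3). In the spinal cord, MPTP-SU+T replicate 2 had 77.1 CPM of Ppargc1a (69.8 to 70.6), MPTP-SU+T replicate 3 had 13.4 CPM of Pdk4 (11.6 to 11.8), and Con replicate 1 had 37.7 CPM of Cpt1a (47.3 to 48.7).

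The effect of MPTP-SU against MPTP-Veh differed between the tissues for 2 members in a test of the difference itself, by -0.61 for Rxra and -0.77 for Ucp2 on the log2 scale (adjusted p = 0.0344 and 0.0251 in edgeR). Both differences lost their call without midbrain MPTP-Veh replicate 4, where they were -0.31 and -0.39 (adjusted p = 0.158 and 0.110).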

How the results depend on the processing

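Over 16 comparisons, 244 of 263 counts of called members under an alternative stayed within 1.5 times of the value reported or were 0 in both, and 19 moved. Most comparisons had no called member and stayed at 0 under every alternative. All 19 moves therefore fell in the comparisons with a call, which are given below, so the pooled count does not measure how stable the calls were. Of 160 member values (10 members in 16 comparisons), 61 changed sign under an alternative, all of them with an adjusted p of 0.05 or more in edgeR in the value reported, such as Ppara (0.10, down to -0.02) and Ppargc1a (0.37, down to -0.03) for MPTP-SU against MPTP-Veh. For MPTP-SU against MPTP-Veh in the midbrain, 2 members were called, 0 with the GC and length trend removed and 0 with the 8 libraries alone, and leaving out 1 library gave 0 to 2 (0 without MPTP-Veh replicate 4 or MPTP-SU replicates 2 or 3). Over all genes that count was 2237, 1472 with the trend removed, 0 with the 8 libraries alone and 572 to 3543 without 1 library. For MPTP-SU+T against MPTP-Veh, 1 member was called, 0 with library size alone, with the replicate block, with the trend removed and with the 8 libraries alone, and 0 to 3 without 1 library (3 without MPTP-Veh replicate 2, which added Rxra and Pdk4, and 2 without MPTP-Veh replicate 3). Over all genes it was 632, 124 with library size alone, 59 with the block, 0 with the 8 libraries alone and 3 to 2456 without 1 library. For Con, 3 members were called and 8 by adjusted p alone. For the tissue difference of MPTP-SU against MPTP-Veh, 2 were called, 1 with no low-count filter and 0 without midbrain MPTP-Veh replicate 4, an alternative chosen after seeing the data. The fits of pathway genes with 1 library left out and the marker counts without that library were also chosen after seeing the data. The causes of these changes were not tested. With 8 libraries the spread is estimated from fewer samples.

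The labels give groups the same replicate numbers and do not say whether same-numbered libraries come from 1 mouse. In no comparison were all 4 pairs of same-numbered libraries correlated above 0.1 in their deviations from the group means. Between the tissues r ran from -0.20 to 0.12 in MPTP-Veh and from 0.07 to 0.34 in MPTP-SU+T. With 4 libraries per group this cannot exclude pairing, and the tests without a replicate block treat the libraries as independent. The replicate block changed 1 call, that of Ucp2 for MPTP-SU+T against MPTP-Veh (-0.74, adjusted p = 0.0607 in edgeR). Pparg had 5 to 30 counts per midbrain library, which limits what could be seen of it.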

Other observations

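Across the 20 midbrain libraries, several members moved against each other. Pearson's r of log2 CPM was 0.84 between Rxra and Ucp2 and -0.85 between Rxra and Ppargc1a, and after removal of the group means it was 0.72 and -0.80. Cpt1a ran against Rxra (-0.83, and -0.68 within groups), and Plin2 ran with Ucp2 (0.78 and 0.73). MPTP-Veh replicate 4 had the highest Rxra (66.3 CPM), Ucp2 (78.7 CPM) and Plin2 (11.9 CPM) of the 20 libraries. It also had the lowest Ppargc1a (35.5 CPM) and Cpt1a (14.5 CPM), and it is included in both sets of r. No r was calculated without this library, so its part in these values was not tested. In the spinal cord, where the spread between libraries was smaller, r was -0.73 for Rxra and Ppargc1a, 0.64 for Ucp2 and Plin2, and 0.39 for Rxra and Ucp2, with the signs of the midbrain, while Cpt1a and Rxra had the opposite sign (0.23, and 0.44 within groups). The transcripts of Rxra and Ucp2 have the highest GC content of the 10 members, at 57.0 and 55.0%, and that of Ppargc1a the lowest at 41.7%. Cpt1a (51.3%), Plin2 (52.1%) and Ppard (52.2%) are close in GC content, with midbrain r to Rxra of -0.83, 0.63 and -0.07. Pdk4, at 44.9%, had an r of -0.29 to Rxra. The part of GC content in these correlations was not tested. The libraries share depth, groups and composition, so these values are descriptions.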
